A study of Mus musculus with 36 samples.

Results

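The genes described here are 10 components of epidermal growth factor receptor (EGFR) signalling: the ligands Hbegf, Areg and Tgfa, the receptor gene Egfr, and the feedback genes Errfi1, Spry1, Spry2, Spry4, Dusp5 and Dusp6. They were taken by name from a table of 55291 mouse genes, and all 10 are in it. The list was selected on measured values of these same libraries, with no record of which, so every comparison below counts as used in choosing it. The fold changes and adjusted p-values given for these genes therefore describe the libraries and are no independent evidence. Total RNA of mouse knee joint tissue was sequenced from 3 groups of 3 libraries, all collected 24 h after the procedure. Inhibitor libraries (ACL_PKCi) came from mice whose anterior cruciate ligament (ACL), one of the stabilising ligaments of the knee, had been injured and that were given a protein kinase C (PKC) inhibitor. Vehicle libraries (ACL) came from mice with the same injury that were given saline, and sham libraries came from mice without the injury. The strain, age and genotype of the mice and the identity and dose of the inhibitor are not given in the sources used here. The labels call these samples knee joint tissue, while a note attached to other samples of the series names cartilage for this set. The cartilage genes Col2a1 and Acan were counted in all 9 libraries, but so were the markers of muscle, bone, fibroblasts, neutrophils and endothelium.

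EGFR is a receptor tyrosine kinase. Its ligands are made as membrane-bound precursors that ADAM proteases release, and the bound receptor activates Ras, Raf, MEK and the kinase ERK. ERK activity in turn switches on genes that restrain the route at several levels. Errfi1 (also called Mig6) encodes a protein that binds the EGFR kinase domain and blocks it, Sprouty proteins act on the steps between receptor and Raf, and DUSP5 and DUSP6 are phosphatases that remove the activating phosphates from ERK. In mouse joints, loss of Errfi1 is known to give degenerative joint disease, and EGFR signalling is known to act in the surface cells of articular cartilage. PKC is a family of lipid-activated kinases that can feed into Raf and into the release of EGFR ligands in many cell types.

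RefSeq promoter entries (build GRCm38.p6) matched 8 of the 10 genes, and Hbegf and Spry4 had no match. The 250 bases before each annotated start were searched on both strands for the AP-1 motif TGANTCA, the cAMP-response element (CRE) half-site TGACG, the TEAD motif GGAATG, the Ets motif CCGGAA and the CArG box. The Errfi1, Egfr and Dusp5 windows are shown because Errfi1 was the gene called higher after injury, Egfr is the receptor, and Dusp5 was the gene with a CArG box. Capitals mark motif matches, and all 4 windows read along the plus strand.
Errfi1, first start, chr4:150853546-150853795: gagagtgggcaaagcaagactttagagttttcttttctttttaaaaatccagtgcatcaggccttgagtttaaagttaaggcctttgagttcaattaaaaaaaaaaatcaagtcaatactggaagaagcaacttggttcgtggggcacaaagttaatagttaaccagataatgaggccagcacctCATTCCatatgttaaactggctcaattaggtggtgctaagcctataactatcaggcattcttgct
Errfi1, second start, chr4:150854820-150855069: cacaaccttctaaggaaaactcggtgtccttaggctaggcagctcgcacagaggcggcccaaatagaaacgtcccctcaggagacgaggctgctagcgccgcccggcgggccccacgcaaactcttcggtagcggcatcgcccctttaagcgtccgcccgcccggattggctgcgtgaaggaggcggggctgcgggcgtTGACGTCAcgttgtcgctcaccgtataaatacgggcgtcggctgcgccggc
Egfr, chr11:16751953-16752202: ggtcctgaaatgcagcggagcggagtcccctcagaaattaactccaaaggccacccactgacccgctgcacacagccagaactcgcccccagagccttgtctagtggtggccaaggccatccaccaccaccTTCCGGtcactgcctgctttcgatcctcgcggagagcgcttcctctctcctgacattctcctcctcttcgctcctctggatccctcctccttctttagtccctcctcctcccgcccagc
Dusp5, chr19:53528895-53529144: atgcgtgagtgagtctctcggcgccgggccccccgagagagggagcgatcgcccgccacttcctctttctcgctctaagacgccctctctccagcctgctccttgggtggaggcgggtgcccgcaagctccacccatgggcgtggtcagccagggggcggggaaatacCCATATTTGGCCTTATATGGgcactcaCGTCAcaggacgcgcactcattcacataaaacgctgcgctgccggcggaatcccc
The window of the first Errfi1 start held 1 TEAD match on the opposite strand, beginning at position -65 from the start. The second held 2 CRE half-sites on opposite strands that overlap in 1 palindrome, at -51 and -48. Egfr held 1 Ets match at -119, and Dusp5 held 2 CArG boxes at -82 and -72 and a CRE half-site at -55. Areg held 3 CRE half-sites at -115, -61 and -58, Spry1 held a TEAD match at -208, and Tgfa, Spry2 and Dusp6 held none of the 5 motifs. Over 32851 RefSeq promoter windows of the same length, 17.8% held a CRE half-site, 12.6% a TEAD match, 12.0% an Ets match, 6.75% an AP-1 match and 1.47% a CArG box. A match describes letters only, and no match says nothing of a factor.

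Libraries held 124 to 202 M counts each, but between 91.2% and 98.2% of them lay on the gene models of 7SL RNA, and the 10 genes together held 198 to 2044 counts. Inhibitor libraries 1 and 2 stood apart, with 11.9 and 11.4 M counts outside 7SL against 3.28 to 5.25 M in the other 7. Values below are normalised read counts, which are counts divided by the effective library size of edgeR's trimmed mean of M values (TMM) and multiplied by the mean of those sizes, given as mean ± SD (n = 3 libraries). A gene was called where the adjusted p of edgeR's quasi-likelihood test (Benjamini-Hochberg over the 13823 genes tested) was under 0.05. The labels call the 3 libraries of a group biological replicates. In such bulk tissue, fewer cells of a type and less RNA per cell cannot be told apart.

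Errfi1 rose after injury in both injured groups. It had 201, 257 and 162 normalised counts in inhibitor libraries 1 to 3, 256, 141 and 164 in vehicle libraries 1 to 3, and 38.4, 68.2 and 58.5 in sham libraries 1 to 3. Every injured library lay above every sham library, and the inhibitor and vehicle libraries overlapped. The means were 207 ± 47.9 in inhibitor, 187 ± 60.7 in vehicle and 55.0 ± 15.2 in sham libraries (n = 3 each). Errfi1 was 3.40-fold higher in vehicle than in sham libraries, a log2 fold change of 1.77 (SE 0.30) with an edgeR quasi-likelihood adjusted p of 0.0209. Against sham, the inhibitor libraries were 3.80-fold higher, at log2 1.93 (SE 0.29), with an edgeR adjusted p of 0.00359. In vehicle against sham, Errfi1 was the only one of the 8 tested genes of this set that was called, where 0.304% of all genes tested were called. Errfi1 lies at chr4:150853919-150868892 on mm10.

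With 1 library left out, the call of Errfi1 in vehicle against sham was lost for 5 of the 6 libraries it compares. It held without vehicle library 2 (log2 1.96, edgeR adjusted p 0.0186) and ended without vehicle library 1 (log2 1.48, adjusted p 0.128), vehicle library 3 (1.85, 0.0873), sham library 1 (1.55, 0.165), sham library 2 (1.96, 0.0862) or sham library 3 (1.81, 0.0979). The direction held in all 20 alternatives. In inhibitor against sham the call held in all 20, with log2 values between 1.58 and 2.12, and 1.58 was the value without inhibitor libraries 1 and 2. That fit holds 1 inhibitor library, which is assumed to vary like the libraries of the other groups.

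Hbegf, which encodes the ligand heparin-binding EGF-like growth factor, was also higher in the injured groups. It had 54.7, 51.0 and 51.9 normalised counts in inhibitor libraries, 41.5, 27.3 and 34.1 in vehicle libraries, and 10.5, 11.8 and 11.3 in sham libraries. The 3 groups did not overlap at all, and the inhibitor libraries were the highest. The means were 52.6 ± 1.94 in inhibitor, 34.3 ± 7.10 in vehicle and 11.2 ± 0.675 in sham libraries (n = 3 each). The sham values rest on 9, 9 and 6 counts, so counting error limits them and their small SD should not be read as precision. Hbegf was called in inhibitor against sham, 4.66-fold higher with a log2 fold change of 2.22 (SE 0.38) and an edgeR adjusted p of 0.00617. Vehicle libraries were 3.03-fold higher than sham libraries (log2 1.60, SE 0.39), but the edgeR adjusted p was 0.135 and it passed the threshold in none of the 20 alternatives. Inhibitor against vehicle gave 0.62 (SE 0.34), with an edgeR adjusted p of 0.448. Without inhibitor libraries 1 and 2 together, Hbegf in inhibitor against sham had a log2 fold change of 2.21 and an edgeR adjusted p of 0.0549, again from 1 inhibitor library with the spread of the other groups. Hbegf and Errfi1 were the 2 genes called of the 8 in inhibitor against sham, where 3.95% of all genes tested were called. They were also the 2 of the 8 whose inhibitor libraries all exceeded their sham libraries, where 11.2% of all genes tested did so. Hbegf lies at chr18:36504927-36515805 on mm10.

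**Figure D1:**
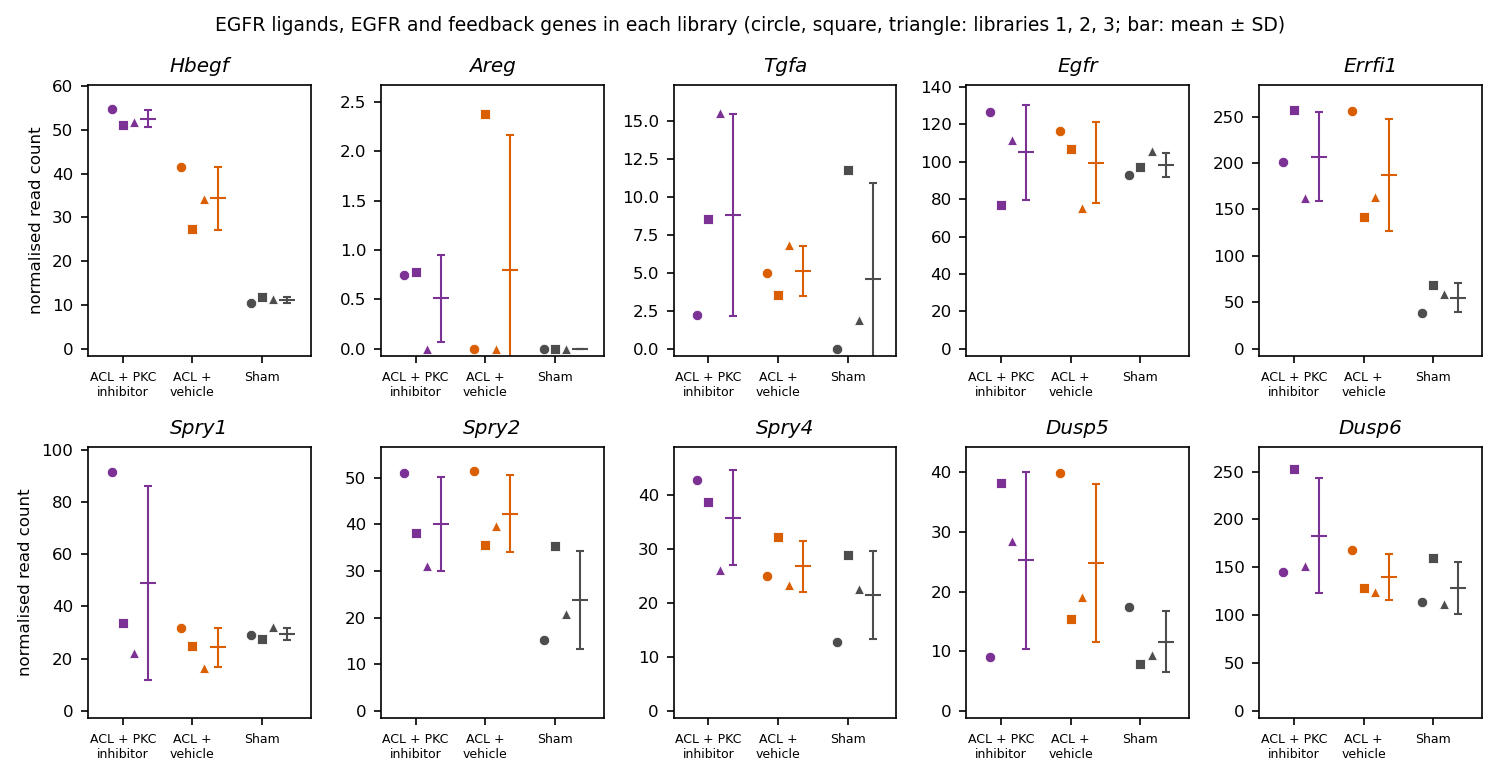
Normalised read counts (vertical axes, each from 0) of the 10 genes in inhibitor, vehicle and sham libraries. Circles, squares and triangles are libraries 1, 2 and 3 and bars give the mean ± SD, cut at 0. Errfi1 and Hbegf sit higher in all 6 injured libraries than in all 3 sham libraries, while Egfr is near 100 in each group.

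The other ligands, which bind the same receptor, were rare. Areg (amphiregulin) had 1, 2 and 0 counts in inhibitor libraries, 0, 2 and 0 in vehicle libraries and none in sham libraries, and it did not enter the test. Tgfa (transforming growth factor alpha) had 3, 22 and 12 counts in inhibitor libraries, 3, 3 and 5 in vehicle libraries and 0, 9 and 1 in sham libraries, and it was not tested either. Tgfa averaged 8.80 ± 6.67 normalised counts in inhibitor, 5.12 ± 1.63 in vehicle and 4.56 ± 6.34 in sham libraries (n = 3 each), with groups that overlap. Of 55291 genes, 13823 passed the filter on low counts. Areg and Tgfa did not, and no fold change is given for them. The 12 epidermal keratinocyte markers, a cell type that expresses both ligands, summed to 51.8 to 81.0 normalised counts in inhibitor, 120 to 130 in vehicle and 106 to 234 in sham libraries. Dsg3 and Lgals7 were at 0 in inhibitor libraries and Krt15 at 0 in vehicle libraries.

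Egfr, the receptor gene, was near the same level in each group. It had 127, 77.1 and 112 normalised counts in inhibitor libraries, 116, 107 and 75.0 in vehicle libraries, and 93.0, 97.0 and 106 in sham libraries. The groups overlapped. The log2 fold change was 0.01 (SE 0.26) in vehicle against sham, 0.07 (SE 0.26) in inhibitor against vehicle and 0.09 (SE 0.26) in inhibitor against sham, with edgeR adjusted p-values of 0.994, 0.930 and 0.893. Counts of Errfi1 per count of Egfr were 1.59, 3.34 and 1.45 in inhibitor, 2.20, 1.32 and 2.18 in vehicle and 0.413, 0.703 and 0.554 in sham libraries, and every injured library lay above every sham library. Egfr lies at chr11:16752203-16918158 on mm10.

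**Figure D2:**
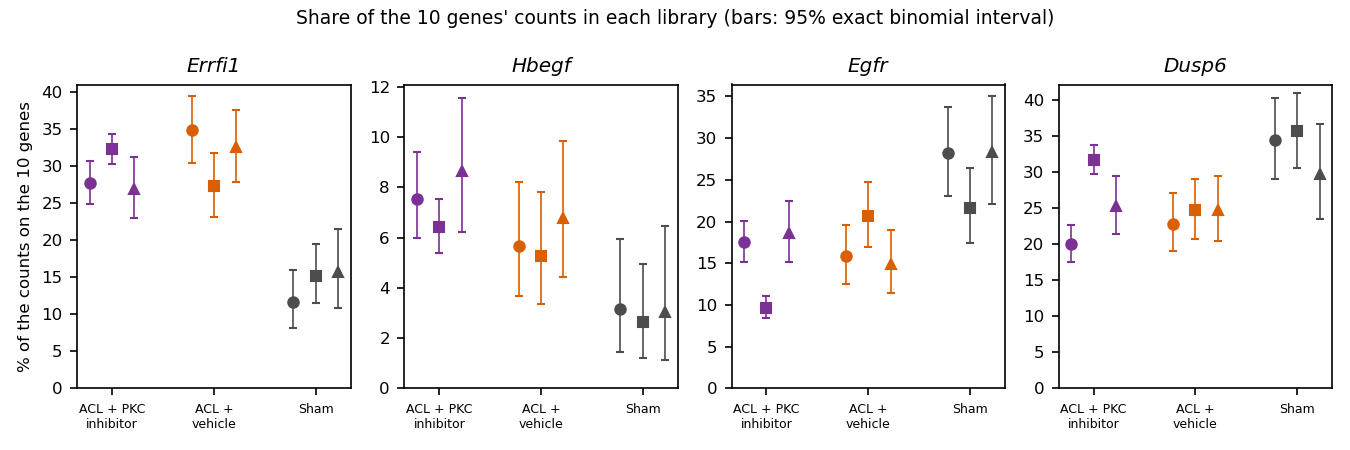
Share (vertical axes, percent) of the counts on the 10 genes that Errfi1, Hbegf, Egfr and Dusp6 took in each library (circles, squares and triangles for libraries 1, 2 and 3), with 95% exact binomial intervals that cover counting error only. Errfi1 takes 27.0% to 32.3% in inhibitor, 27.3% to 34.8% in vehicle and 11.6% to 15.7% in sham libraries.

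Taken as a share of the counts on these 10 genes, which needs no scaling between libraries, Errfi1 took 29.0% ± 2.89 in inhibitor, 31.6% ± 3.88 in vehicle and 14.2% ± 2.21 in sham libraries (n = 3 each). Hbegf took 7.54% ± 1.12 in inhibitor, 5.91% ± 0.790 in vehicle and 2.94% ± 0.279 in sham libraries. Egfr took 15.3% ± 4.85 in inhibitor, 17.1% ± 3.06 in vehicle and 26.0% ± 3.80 in sham libraries, and the shares of a fixed total move against each other. Dusp6 took 25.7% ± 5.90 in inhibitor, 24.1% ± 1.10 in vehicle and 33.3% ± 3.11 in sham libraries. The smallest library of the set, sham 3, had 198 of these counts, and 31 of them were Errfi1 (15.7%, 95% exact interval 10.9% to 21.5%).

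The 3 Sprouty genes did not pass the test in any comparison. Spry2, an inhibitor of receptor tyrosine kinase signalling, had 51.0, 38.2 and 31.2 normalised counts in inhibitor libraries, 51.5, 35.7 and 39.6 in vehicle libraries and 15.1, 35.4 and 20.7 in sham libraries. Its vehicle libraries lay just above its sham libraries without overlap, at log2 0.82 (SE 0.41) and an edgeR adjusted p of 0.628. Errfi1, Hbegf and Spry2 were the 3 of the 8 tested genes whose vehicle libraries all exceeded their sham libraries, where 8.20% of all genes tested did so. Spry4, a Sprouty protein that also restrains Raf activation, had 42.8, 38.6 and 26.0 normalised counts in inhibitor, 24.9, 32.1 and 23.2 in vehicle and 12.8, 28.8 and 22.6 in sham libraries, and its groups overlapped. Spry4 gave log2 0.33 (SE 0.43) in vehicle against sham and 0.43 (SE 0.40) in inhibitor against vehicle, with edgeR adjusted p-values of 0.899 and 0.683. In inhibitor against sham, Spry2 and Spry4 were both at log2 0.76 (SE 0.40 and 0.41), with edgeR adjusted p-values of 0.338 and 0.362.

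Spry1, a further member of the family, was high in a single library. It had 91.5, 33.5 and 22.1 normalised counts in inhibitor libraries, 31.6, 25.0 and 16.4 in vehicle libraries, and 29.1, 27.5 and 32.1 in sham libraries. Inhibitor library 1 stood apart, and inhibitor library 3 lay among the vehicle libraries. Inhibitor against vehicle gave log2 1.03 (SE 0.48, edgeR adjusted p 0.371) and inhibitor against sham 0.74 (SE 0.48, adjusted p 0.451). Without inhibitor library 1 these were 0.24 and -0.04, and vehicle against sham was -0.29 (SE 0.51, edgeR adjusted p 0.935). In the same library the 8 endothelial markers summed to 2672 normalised counts, against 518 and 439 in the other inhibitor libraries, 620 to 732 in vehicle and 580 to 1033 in sham libraries. The 12 skeletal muscle markers summed to 40228 there, against 6899 and 3374 in the other inhibitor libraries, 7151 to 9293 in vehicle and 12157 to 29961 in sham libraries. With the mean level of the muscle markers as a covariate, Spry1 was at log2 0.70 in inhibitor against vehicle (edgeR adjusted p 0.413), 0.91 in inhibitor against sham (0.175) and 0.22 in vehicle against sham (0.937), where its sign turned. The part of endothelial cells in the Spry1 value was not tested.

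**Figure D3:**
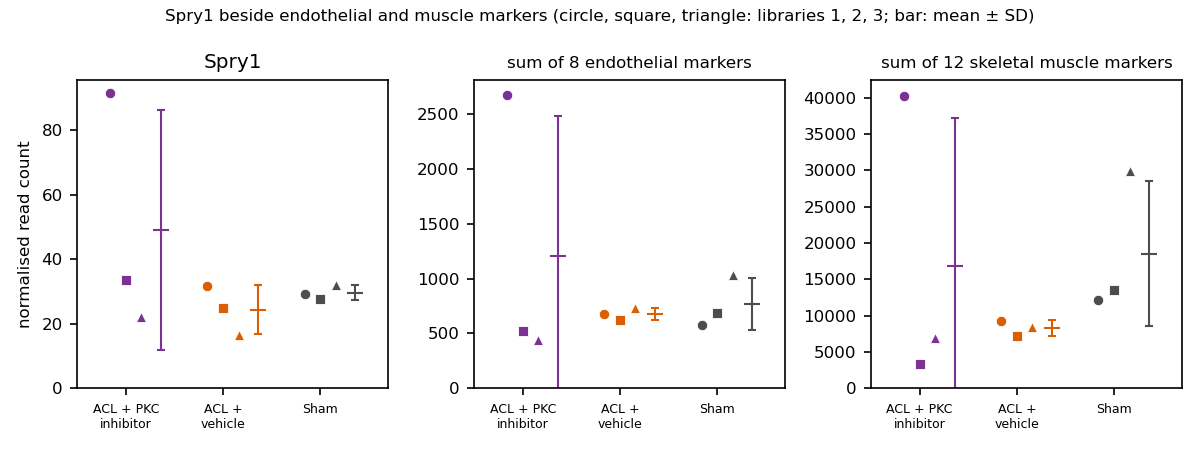
Spry1 and the summed levels of endothelial and skeletal muscle markers (vertical axes, normalised read counts) in each library, with libraries 1, 2 and 3 as circles, squares and triangles and bars for the mean ± SD, cut at 0. Inhibitor library 1 is the highest point of all 3 panels, at 91.5, 2672 and 40228.

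The ERK phosphatases differed in level and in spread. Dusp6, which acts on ERK in the cytoplasm, had 145, 253 and 152 normalised counts in inhibitor libraries, 168, 128 and 124 in vehicle libraries and 114, 160 and 111 in sham libraries. The groups overlapped, and inhibitor library 2 was the highest. Its log2 fold changes were 0.12 (SE 0.26) in vehicle against sham, 0.40 (SE 0.26) in inhibitor against vehicle and 0.52 (SE 0.26) in inhibitor against sham, with edgeR adjusted p-values of 0.954, 0.524 and 0.309. Without inhibitor library 2 the last 2 were 0.07 and 0.20. Dusp5, a nuclear ERK phosphatase, had 9.0, 38.2 and 28.6 normalised counts in inhibitor libraries, 39.9, 15.5 and 19.1 in vehicle libraries and 17.4, 7.87 and 9.43 in sham libraries. Inhibitor library 1 was low and vehicle library 1 high, and the groups overlapped. Dusp5 gave log2 1.05 (SE 0.62) in vehicle against sham, 0.06 (SE 0.56) in inhibitor against vehicle and 1.10 (SE 0.60) in inhibitor against sham, with edgeR adjusted p-values of 0.703, 0.978 and 0.357.

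**Figure D4:**
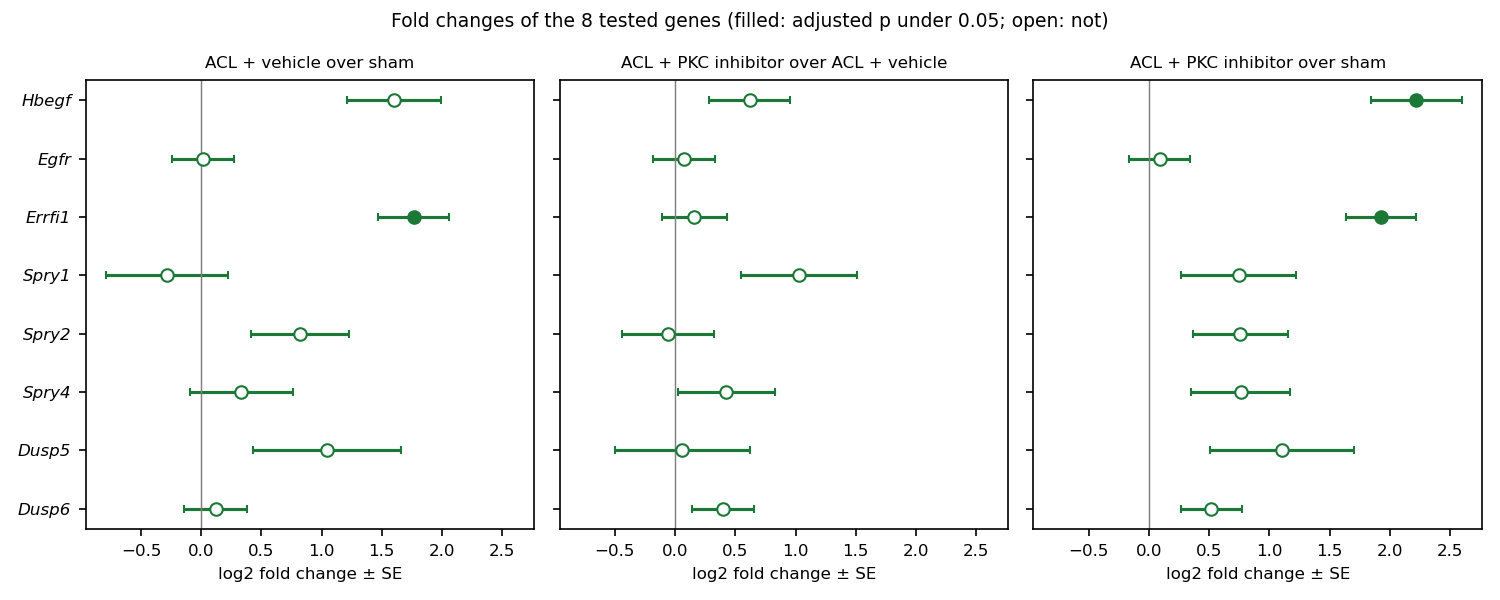
Log2 fold changes with their SE (horizontal axes) of the 8 tested genes in 3 comparisons, filled where the edgeR adjusted p was under 0.05. Errfi1 is filled in vehicle and inhibitor against sham (1.77 and 1.93) and Hbegf in inhibitor against sham (2.22), and no gene is filled in inhibitor against vehicle.

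Inhibitor against vehicle compares injured mice with and without the PKC inhibitor, but the 2 groups also differed in marker levels. The chondrocyte markers summed to 1551 to 4127 in inhibitor and 6365 to 9098 in vehicle libraries. Of the tested markers, 0 of 9 chondrocyte, 12 of 12 muscle and 7 of 8 endothelial ones were above 0, with none called. The part of tissue make-up in the values below was not tested. None of the 8 tested genes was called, where 0.731% of all genes tested were called. The count at an unadjusted edgeR p under 0.05 was 1, Spry1, while 1858 of all genes tested (13.4%) passed that mark. DESeq2 called none of the 8 either. Hbegf was the 1 gene whose inhibitor libraries all exceeded its vehicle libraries, where 8.44% of all genes tested did so. Errfi1 was at log2 0.16 (SE 0.27), with an edgeR adjusted p of 0.842, and Spry2 at -0.06 (SE 0.38), with an adjusted p of 0.965. The median log2 fold change was 0.28 over the 8 tested genes, with 7 above 0. Over all 13823 genes tested it was 0.04, with 7441 above 0. In vehicle against sham the medians were 0.58 over the 8 genes, again with 7 above 0, and -0.02 over all genes (6653 above 0). In inhibitor against sham they were 0.76, with all 8 above 0, and 0.03 over all genes (7246 above 0). The comparisons share libraries, so their values are not separate evidence of each other.

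Per kilobase of exon length, the order of the normalised levels in inhibitor libraries was Dusp6 (58.5), Errfi1 (57.8), Spry2 (19.2), Spry1 (16.9), Hbegf (10.9), Dusp5 (10.2), Egfr (9.29), Spry4 (7.52), Tgfa (1.36) and Areg (0.420). In vehicle libraries Errfi1 (52.2) and Dusp6 (44.7) led, followed by Spry2 (20.2), Dusp5 (10.03), Egfr (8.78), Spry1 (8.36), Hbegf (7.10) and Spry4 (5.62). In sham libraries Dusp6 (41.0) led, ahead of Errfi1 (15.4), Spry2 (11.4), Spry1 (10.2), Egfr (8.70), Dusp5 (4.68), Spry4 (4.50) and Hbegf (2.32). In each injured group Dusp6 and Errfi1 differed by less than their SD, whereas in sham libraries the Dusp6 mean less its SD lay above the Errfi1 mean plus its SD. In inhibitor libraries each neighbouring pair from Spry2 down to Spry4 also differed by less than the larger SD of the pair.

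For each tested gene, the closest expression profiles over the 9 libraries were taken among 2272 well-counted protein-coding genes, by the root mean square (RMS) difference of log2 values. Cxcl14 (0.23), Ctsl (0.30) and Ccl6 (0.35) were closest to Errfi1, where the median gene was at 0.94, and they encode a chemokine, a lysosomal protease and a chemokine. Dab2 (0.20), an endocytic adaptor, was closest to Hbegf, followed by Ctsl and Cxcl14 at 0.35 each, with a median gene at 0.89. Spry1 was nearest to Dlc1 (0.26), Tns1 (0.27) and Epas1 (0.29), and Spry4 to Rbpj (0.21), Cald1 (0.22) and Parva (0.23). Among the genes nearest to Spry2 were Cenpb (0.29) and Rbpj (0.32), and Dusp5 was nearest to Fosl2 (0.37), Fxyd5 (0.38) and Fam129b (0.38). Egfr was nearest to Tnks1bp1, Fxr1 and Phldb1 (0.14 each) and Dusp6 to Sh3bgrl3, Tnpo1 and Pdcd6ip (0.15 each). These are descriptions over 9 libraries that share their scaling.

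The other genes of the route, 72 in 7 lists by role, were read against the shares over all genes tested. Their median log2 fold changes were 0.05 in vehicle against sham, 0.10 in inhibitor against vehicle and 0.21 in inhibitor against sham. Of the 61 that were tested, 1 was called in vehicle against sham (Fosl1), 0 in inhibitor against vehicle and 2 in inhibitor against sham (Fosl1 and Egr1). These are 1.64%, 0% and 3.28% of the 61, beside 0.304%, 0.731% and 3.95% of all genes tested. In these comparisons 10, 6 and 13 of them (16.4%, 9.84% and 21.3%) had an unadjusted p under 0.05, beside 8.28%, 13.4% and 18.0% of all genes tested. DESeq2 called 1 (Adam10, lower) in inhibitor against vehicle. Fosl1, a component of the transcription factor AP-1 that ERK stabilises, had 11.9 ± 9.19 normalised counts in inhibitor and 22.5 ± 3.83 in vehicle libraries (n = 3 each) and no count in sham libraries. It was at least 2.74-fold higher in inhibitor and at least 5.16-fold higher in vehicle than in sham libraries, computed against 3 counts per sham library, with edgeR adjusted p-values of 0.0222 and 0.0356. Egr1, an immediate-early transcription factor driven by ERK, was 139 ± 71.0 in inhibitor, 150 ± 63.8 in vehicle and 45.2 ± 7.85 in sham libraries, with log2 1.61 in inhibitor against sham (edgeR adjusted p 0.0480). In vehicle against sham Egr1 was at 1.72 with an edgeR adjusted p of 0.155. No gene of these lists was called in vehicle against sham without any 1 vehicle or sham library, nor in inhibitor against sham without inhibitor library 2 or any 1 sham library. Without vehicle library 2 or 3, or without inhibitor libraries 1 and 2, inhibitor against sham gave 1 call. The ERK-responsive list also held Ier3, at 61.2 ± 44.0 in inhibitor, 125 ± 65.9 in vehicle and 19.8 ± 10.4 in sham libraries (log2 2.59 in vehicle against sham, edgeR adjusted p 0.203), and Myc, at 107 ± 46.6 in inhibitor, 208 ± 38.8 in vehicle and 167 ± 17.2 in sham libraries (log2 -0.98 in inhibitor against vehicle, edgeR adjusted p 0.140).

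Upstream of the receptor, the 7 sheddases and their cofactors had a median log2 fold change of 0.42 in vehicle against sham, with all 7 above 0 and none called, and of -0.18 in inhibitor against vehicle, with 1 above 0 and none called. Adam10, a sheddase of this list, was at 207 ± 54.0 in inhibitor, 358 ± 8.57 in vehicle and 266 ± 10.4 in sham libraries (n = 3 each). Its inhibitor libraries all lay below its vehicle libraries, at log2 -0.80 with an edgeR adjusted p of 0.0875. Adam10 and Rhbdf2 were the 2 of these 7 genes with that separation, where 1441 of all 13823 genes tested had it. Adam8 was at 184 ± 111 in inhibitor, 260 ± 95.04 in vehicle and 108 ± 19.8 in sham libraries (log2 1.26 in vehicle against sham, edgeR adjusted p 0.459). Adam12 was at 159 ± 62.4 in inhibitor, 161 ± 33.0 in vehicle and 98.2 ± 48.7 in sham libraries (log2 0.74 in vehicle against sham, edgeR adjusted p 0.657). Rhbdf2, a cofactor of the sheddase ADAM17, was at 58.8 ± 16.1 in inhibitor, 98.5 ± 22.4 in vehicle and 98.0 ± 16.7 in sham libraries (log2 -0.73 in inhibitor against vehicle, edgeR adjusted p 0.254).

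Of the 8 other ErbB ligands 2 were tested and neither was called. Egf was at 12.1 ± 18.1 in inhibitor, 8.51 ± 7.42 in vehicle and 17.4 ± 7.88 in sham libraries (n = 3 each). Nrg1, which shares a strand and bases with the gene model AC132407.1, was at 3.04 ± 1.09 in inhibitor, 8.05 ± 6.98 in vehicle and 7.02 ± 7.19 in sham libraries. Ereg, another EGFR ligand that was too rare to test, was picked out after its values were seen. It had 0, 29 and 6 counts in inhibitor, 6, 10 and 7 in vehicle and none in sham libraries. The partner receptors of EGFR were not called: Erbb2 was at 17.2 ± 5.14 in inhibitor, 27.4 ± 10.8 in vehicle and 19.9 ± 7.87 in sham libraries, and Erbb3 at 6.46 ± 5.48 in inhibitor, 11.3 ± 1.59 in vehicle and 10.3 ± 3.79 in sham libraries.

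Downstream, the 17 adaptor and Ras-Raf-MEK-ERK genes had medians of -0.02 in vehicle against sham and 0.23 in inhibitor against vehicle, with 8 and 14 of 17 above 0 and none called. Nras, a Ras gene, was at 302 ± 41.9 in inhibitor, 220 ± 10.2 in vehicle and 224 ± 30.5 in sham libraries. Gab1, a docking protein, was at 113 ± 27.1 in inhibitor, 154 ± 29.7 in vehicle and 101 ± 12.7 in sham libraries. Ksr1, a scaffold for Raf and MEK, was at 180 ± 174 in inhibitor, 111 ± 26.5 in vehicle and 135 ± 56.4 in sham libraries, with 378 in inhibitor library 1.

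The 15 tested brakes at receptor and Ras level had medians of -0.01 in vehicle against sham and 0.13 in inhibitor against vehicle, and none was called. Spred3, a relative of the Sproutys, was at 13.5 ± 3.20 in inhibitor, 22.4 ± 5.11 in vehicle and 7.46 ± 3.35 in sham libraries (log2 1.63 in vehicle against sham, edgeR adjusted p 0.368). Il17rd, also called Sef, was at 28.1 ± 26.0 in inhibitor, 9.77 ± 4.40 in vehicle and 12.9 ± 3.17 in sham libraries. Its inhibitor libraries were at 57.0, 6.62 and 20.8, so library 1 was again the highest. Lrig3 gave log2 0.72 in vehicle against sham and -0.71 in inhibitor against vehicle. The 8 tested phosphatases beside Dusp5 and Dusp6 had medians of -0.22 in vehicle against sham and 0.06 in inhibitor against vehicle, with none called. Dusp1, which acts on several MAP kinases, was at 152 ± 44.6 in inhibitor, 191 ± 83.0 in vehicle and 80.7 ± 21.3 in sham libraries (log2 1.22 in vehicle against sham, edgeR adjusted p 0.190). Dusp2 was at 9.33 ± 4.96 in inhibitor, 16.5 ± 4.91 in vehicle and 27.2 ± 2.41 in sham libraries. Dusp10 gave log2 -1.03 in vehicle against sham and 0.83 in inhibitor against vehicle.

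**Figure D5:**
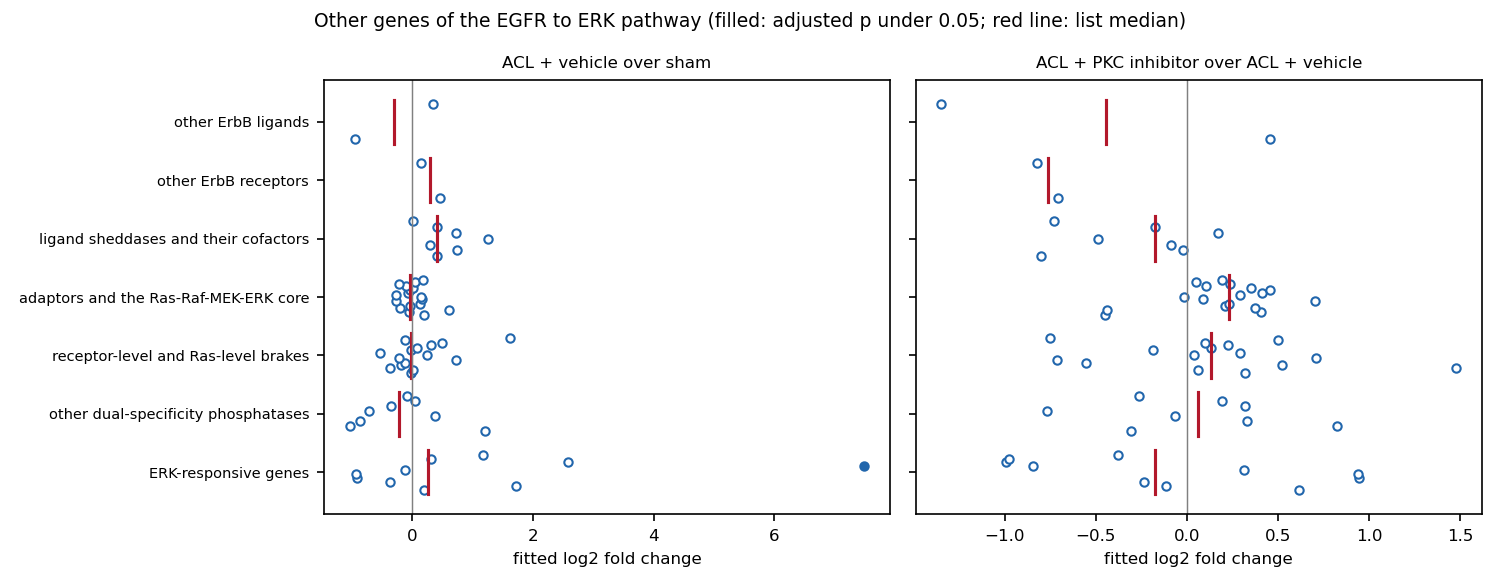
Fitted log2 fold changes (horizontal axes) of the tested genes in the 7 other lists of the route, for vehicle over sham and inhibitor over vehicle, with a red line at each list median and filled points where the edgeR adjusted p was under 0.05. Fosl1 in vehicle over sham is the 1 filled point, and its place depends on the prior count because sham libraries had no count of it.

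The levels of cell type markers are set beside Errfi1 and Hbegf here. For the monocyte and chondrocyte lists, the vehicle and sham sums overlapped. For the neutrophil and skeletal muscle lists, every vehicle sum lay below every sham sum. The 10 monocyte and macrophage markers, some of the cells that can express Hbegf, summed to 2533 to 4947 normalised counts in inhibitor, 2647 to 4403 in vehicle and 2169 to 2691 in sham libraries. They had a median log2 fold change of 0.50 in vehicle against sham, with 7 of 10 above 0 and none called, and of 0.97 in inhibitor against sham, with all 10 above 0 and 1 called higher. Lyz2 was the largest part of these sums, at 1449 in vehicle and 1617 in sham libraries, so they hide rarer markers. Arg1 averaged 655 in vehicle and 5.24 in sham libraries, Cd14 160 and 18.8, and Ccr2 138 and 57.0. Lyz2, Mrc1 (156 and 165) and Cd163 (176 and 192) went the other way. The 10 chondrocyte markers summed to 1551 to 4127 in inhibitor, 6365 to 9098 in vehicle and 6975 to 21863 in sham libraries, and 3 of the 9 tested were called lower in inhibitor against sham. The 10 neutrophil markers summed to 8384 to 18490 in inhibitor, 8270 to 10701 in vehicle and 15596 to 20954 in sham libraries. Their median log2 fold change was -0.87 in vehicle against sham, with 1 of 10 called lower, and -0.88 in inhibitor against sham, with 5 of 10 called lower. S100a8 and S100a9 were the largest parts of these sums. Above 0 were 1 of 10 in vehicle against sham, Cxcr2 (140 ± 39.0 in vehicle and 91.4 ± 15.8 in sham libraries), and 2 of 10 in inhibitor against sham. The markers thus did not all move together. Of all 13823 genes tested, 39 were called higher and 3 lower in vehicle against sham. In inhibitor against sham, 175 of all genes were called higher and 371 lower. No marker list was at 0 in any group. The part of these cell types in the Errfi1 and Hbegf values was not tested. With the mean level of the muscle markers as a covariate, Errfi1 in vehicle against sham was at log2 1.74 (edgeR adjusted p 0.00438) and Hbegf at 1.65 (0.0737). That covariate holds the muscle level alone and does not adjust for monocytes, chondrocytes or neutrophils.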

How the data were processed

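RNA was extracted from knee joint tissue, depleted of ribosomal RNA and sequenced, per the labels' protocols. The deposited values are raw read counts per gene name, made by the authors with featureCounts 2.0.1 on the reverse strand over GENCODE M25 exons, with multi-mapping and overlapping reads counted in full, per the file headers; the submitters' processing notes name HISAT2, with no version in the sources used here, and mm10. This counting inflates repeated genes such as 7SL RNA. The 27 columns of other sets match no sample label and were not used.

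The 9 libraries were fitted together in edgeR 4.0.16 (R 4.3.3) with filterByExpr, TMM scaling and robust quasi-likelihood dispersions; two-sided tests were adjusted by Benjamini-Hochberg over 13823 genes. Each SE was taken as log2 fold change over the root of F. The vehicle against sham test was checked on simulated counts with planted changes, and the inhibitor comparisons were not checked in this way. DESeq2 1.42.0, RLE scaling, other filters, covariates and each library left out were alternatives. Pathway and marker lists came from textbook membership; the members and lists were chosen with earlier results of these data known. All 10 genes are named, plus pathway genes that were called or had the 2 largest fold changes per list in vehicle against sham or inhibitor against vehicle, and the 3 nearest profiles (RMS of log2 CPM, prior count 2, at least 1 CPM) per gene. Of the genes this rule names, 2 are not reported here.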

Additional observations from a re-analysis of the deposited data

How the results depend on the processing

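Of 20 alternatives, none turned the sign of a called gene. The number of the 8 tested genes that were called was 1 in vehicle against sham (0 to 1 with 1 library left out), 0 in inhibitor against vehicle under every alternative, and 2 in inhibitor against sham (1 without inhibitor libraries 1 and 2). Of the other pathway genes, 1 was called in vehicle against sham: 3 with DESeq2, 6 with no filter, 5 with only these groups, 2 with the muscle covariate, 5 without inhibitor libraries 1 and 2, and 0 to 5 with 1 library left out. In inhibitor against vehicle 0 were called: 1 with DESeq2, 1 with no filter, 2 with the muscle covariate and 0 to 2 with 1 library left out. In inhibitor against sham 2 were called: 9 with no filter, 0 with only these groups, 6 with the muscle covariate, 1 without inhibitor libraries 1 and 2, and 0 to 5 with 1 library left out. The replicate block gave 0 in vehicle against sham and 1 (Fosl1) in inhibitor against sham. Replicate numbers are not stated to pair samples. Correlations of same-numbered libraries ran from -0.24 to 0.07 and those of differently numbered libraries from -0.17 to 0.20. With 3 libraries a group these cannot exclude a pairing. Over all genes, 42, 101 and 546 were called, against 147, 330 and 858 with DESeq2, 262, 554 and 1056 with no filter, and 24, 103 and 420 with the replicate block. The causes were not tested. Below about 20 counts a library, as for Hbegf in sham, Areg and Tgfa, counting error limits each value. The same holds for Dusp5, Spry1, Spry2 and Spry4 in some libraries, such as Dusp5 in sham libraries 1 to 3 (15, 6 and 5 counts).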
